A study of Homo sapiens with 12 samples.

Results

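MTF2 peaks that were called both in PHF19-depleted and in control K562 cells, and at which no PHF19 peak was called in control cells, made up most of the MTF2 peaks of the control. They were chosen from the deposited peak lists: an MTF2 shCT peak was taken where it shared at least 1 bp with an MTF2 sh#2 peak and no base with a PHF19 shCT peak. Of the 12502 MTF2 shCT peaks, 7912 met this rule (63.3%, exact binomial 95% interval 62.4 to 64.1). They are called the PHF19-free stable peaks here. The other MTF2 shCT peaks were 2491 stable peaks that overlapped a PHF19 peak, 1910 peaks lost in sh#2 without a PHF19 peak and 189 lost peaks with one. Since the rule used these lists, the shares describe the choice: 83.2% of all MTF2 shCT peaks overlapped an sh#2 peak and 78.6% overlapped no PHF19 peak.

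K562 is an established line of chronic myeloid leukemia cells that carries the BCR-ABL fusion and has erythroid features. The cells were infected with an shRNA against the long isoform of PHF19 (sh#1 or sh#2) or with the empty vector pLKO.1 (shCT). ChIP-seq was done for MTF2 in sh#2 and shCT cells, for PHF19 in sh#1, sh#2 and shCT cells and with IgG in shCT cells, with fly chromatin added to each reaction, in 1 library per condition. RNA-seq was done in 2 libraries for each of sh#1, sh#2 and shCT, and the deposited table gives 1 mean per gene over all 6 libraries. The 3 peak lists analysed held 18287 peaks over 63.2 Mb (MTF2 in sh#2), 12502 peaks over 29.0 Mb (MTF2 in shCT) and 5621 peaks over 11.5 Mb (PHF19 in shCT). Every PHF19 peak named here is thus one of shCT cells, also where an MTF2 peak of sh#2 cells is said to touch it. With 1 library per condition no difference between conditions could be tested, and the intervals given here cover counting over peaks or genes only. The lists hold positions and caller scores but no tag counts, so the depth of the libraries is unknown, and the absence of a PHF19 peak says that none was called, not that PHF19 was absent. The deposited PHF19 list was longer than the set the study kept after a minimum of tags, and with only its peaks at or above their median score 69.5% of the MTF2 shCT peaks would be PHF19-free and stable. The erythroid markers GATA1 and KLF1 had mean normalized counts of 7043 and 4463 in the RNA table, while the myeloid markers ELANE and MPO were listed at 0 and 1.43. MTF2 itself had a mean of 2797 and PHF19 one of 7798. These means pool all groups, so the depletion of PHF19, which lowers and does not remove it, was not checked here.

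MTF2 and PHF19 are Polycomb-like proteins, accessory subunits of the Polycomb repressive complex PRC2, whose EZH2 subunit methylates histone H3 on lysine 27 and keeps developmental genes silent. Both carry a Tudor domain, PHD fingers and a winged helix that binds DNA with unmethylated CpG, and in mammals they bring PRC2 to CpG islands. CpG islands are stretches rich in G and C that have kept their CpG dinucleotides and often cover promoters.

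The sequences under the strongest PHF19-free stable peaks are shown because CpG is the feature that the 2 proteins are known to bind. For the 3 highest-scoring peaks at promoters and the 3 highest-scoring between genes, 200 bases inside the shCT peak are printed. They are the 200 bases with most CpG that overlap no untranslated region of a transcript, so denser stretches may be left out. The plus strand of GRCh37 (the assembly of hg19) is shown, with each CpG in capitals.
EN2 promoter, chr7:155249991-155250190: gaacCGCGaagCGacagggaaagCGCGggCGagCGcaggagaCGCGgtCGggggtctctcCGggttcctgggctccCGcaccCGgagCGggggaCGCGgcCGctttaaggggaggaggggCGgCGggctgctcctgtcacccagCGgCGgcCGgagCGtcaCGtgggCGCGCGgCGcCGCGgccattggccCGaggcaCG
PRKCZ promoter, chr1:2000413-2000612: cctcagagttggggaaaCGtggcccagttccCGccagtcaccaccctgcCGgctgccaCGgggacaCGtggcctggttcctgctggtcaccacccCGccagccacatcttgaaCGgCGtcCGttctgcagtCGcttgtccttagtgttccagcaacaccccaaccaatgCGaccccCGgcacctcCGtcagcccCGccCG
TMEM170B promoter, chr6:11537757-11537956: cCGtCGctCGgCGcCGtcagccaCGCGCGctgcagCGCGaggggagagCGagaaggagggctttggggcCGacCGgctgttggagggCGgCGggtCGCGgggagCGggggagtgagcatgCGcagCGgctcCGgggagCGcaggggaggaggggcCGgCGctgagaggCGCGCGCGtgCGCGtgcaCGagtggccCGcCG
between genes near CACNA1H, chr16:1190648-1190847: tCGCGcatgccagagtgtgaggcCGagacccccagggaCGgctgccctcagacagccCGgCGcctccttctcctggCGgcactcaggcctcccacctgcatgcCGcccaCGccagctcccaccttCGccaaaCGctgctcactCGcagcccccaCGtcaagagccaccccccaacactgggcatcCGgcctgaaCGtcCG
between genes near CRYAA, chr21:44690643-44690842: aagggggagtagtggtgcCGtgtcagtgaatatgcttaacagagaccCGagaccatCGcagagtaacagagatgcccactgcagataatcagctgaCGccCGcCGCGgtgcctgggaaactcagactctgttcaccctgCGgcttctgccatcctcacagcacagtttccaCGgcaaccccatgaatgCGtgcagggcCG
between genes near FOXL3, chr7:419517-419716: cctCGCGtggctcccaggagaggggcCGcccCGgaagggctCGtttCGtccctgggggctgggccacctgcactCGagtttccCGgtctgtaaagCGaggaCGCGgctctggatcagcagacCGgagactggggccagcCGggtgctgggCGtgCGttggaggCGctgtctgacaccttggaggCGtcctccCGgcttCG
The windows at EN2 and TMEM170B held 32 and 33 CpG, while that at PRKCZ held 15. Those between genes held 16 (near CACNA1H), 11 (near CRYAA) and 19 (near FOXL3), fewer than at EN2 and TMEM170B. Over all PHF19-free stable peaks the window chosen in this way held a median of 11 CpG (quartiles 8 and 15). The median was 14 in stable peaks with PHF19 and 10 over all MTF2 shCT peaks. These groups also differed in width and in their share at promoters, and the part of these was not tested.

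EN2 encodes a homeobox factor that patterns the midbrain and hindbrain. Its peak was 10671 bp wide in sh#2 cells (chr7:155239987-155250657) and 10271 bp wide in shCT cells (chr7:155240109-155250379). The caller score, which rises with the strength of the evidence for a peak and starts at 50, was 1747 in sh#2 (rank 122 of that list) and 982 in shCT (rank 105). The nearest PHF19 peak lay 31056 bp away. PRKCZ encodes an atypical protein kinase C. Its peak had widths of 9979 bp in sh#2 and 7839 bp in shCT, with scores of 855 (rank 661) and 884 (rank 154), so that here the score was the lower one in sh#2. TMEM170B, which encodes a transmembrane protein, had a narrow and CpG-dense peak of 2820 bp in sh#2 and 2327 bp in shCT, where the ratio of observed to expected CpG was 0.882. The next promoter peaks by score belonged to SULF2, an enzyme that removes sulfate groups from heparan sulfate, SSTR5, a somatostatin receptor, TBX5, a T-box factor of heart and limb, NDRG4, MUC6, a gastric mucin, LSP1, an actin-binding protein of leukocytes, and EPHB2, an ephrin receptor kinase. At TBX5 the peak was 13910 bp wide in sh#2 and 7417 bp in shCT, and the nearest PHF19 peak was 691793 bp away. At SULF2 it was 14594 bp in sh#2 and 4671 bp in shCT. The sh#2 MTF2 peak touched a PHF19 peak of shCT cells, while the shCT MTF2 peak ended 1425 bp from one. MUC6 alone of these 10 had a narrower peak in sh#2, with 5819 bp, against 6360 bp in shCT.

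The highest-scoring PHF19-free stable peak of all, named after its value was seen, lay in the body of KCNT1, a sodium-activated potassium channel gene (chr9:138671028-138676250). It was 21265 bp wide in sh#2 and 5223 bp in shCT, with scores of 1861 (rank 97) and 1330 (rank 40). The sh#2 MTF2 peak touched a PHF19 peak of shCT cells. Between genes, the highest-scoring PHF19-free stable peak lay 6782 bp from the nearest transcript start of CACNA1H, a T-type calcium channel gene (chr16:1188668-1196324). It was 8332 bp wide in sh#2 and 7657 bp in shCT, and it ranked 34 and 72 in the 2 lists. The peaks near CRYAA, a lens crystallin gene, and FOXL3, a forkhead gene, lay 98372 and 83842 bp from those starts, 3.43 and 0.414 Mb from the end of their chromosomes. The others of the 5 strongest were near HDAC4, which encodes a histone deacetylase, and CDH26, a cadherin gene. The maximum score in the whole MTF2 shCT list was 3100. The median score was 86.7 for PHF19-free stable peaks, 171 for stable peaks with PHF19 and 61.3 for lost peaks without PHF19, and 86.6 over all MTF2 shCT peaks, so the PHF19-free stable peaks sat at the middle of the list. Of the 1000 highest-scoring MTF2 shCT peaks, 318 were PHF19-free stable peaks and 649 were stable peaks with PHF19.

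The PHF19-free stable peaks lay mostly away from the promoters of protein-coding genes. A promoter was the stretch within 2.5 kb of the start of any transcript of a protein-coding gene, so a gene can have several, also within its body. Of the 7912 peaks, 1644 overlapped one (20.8%, interval 19.9 to 21.7), 3038 lay in a gene body outside promoters (38.4%) and 3230 were intergenic (40.8%). Of the stable peaks with PHF19, 42.4% were at promoters (40.4 to 44.4), 25.01% in gene bodies and 32.6% intergenic. Lost peaks without PHF19 had 10.9% at promoters (9.58 to 12.4). The share at promoters among PHF19-free stable peaks thus stood between those of the 2 other groups, and over all MTF2 shCT peaks it was 23.6%. With the transcript starts of all annotated genes, non-coding ones included, the share of PHF19-free stable peaks at promoters was 37.9%. The score of a peak moved with its place: when all MTF2 shCT peaks were put into 4 bins of equal size by shCT score, low to high, 17.4%, 18.3%, 20.9% and 27.7% of the PHF19-free stable peaks were at promoters. For stable peaks with PHF19 these shares were 26.9%, 31.7%, 33.6% and 51.1%, higher in each bin.

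**Figure D1:**
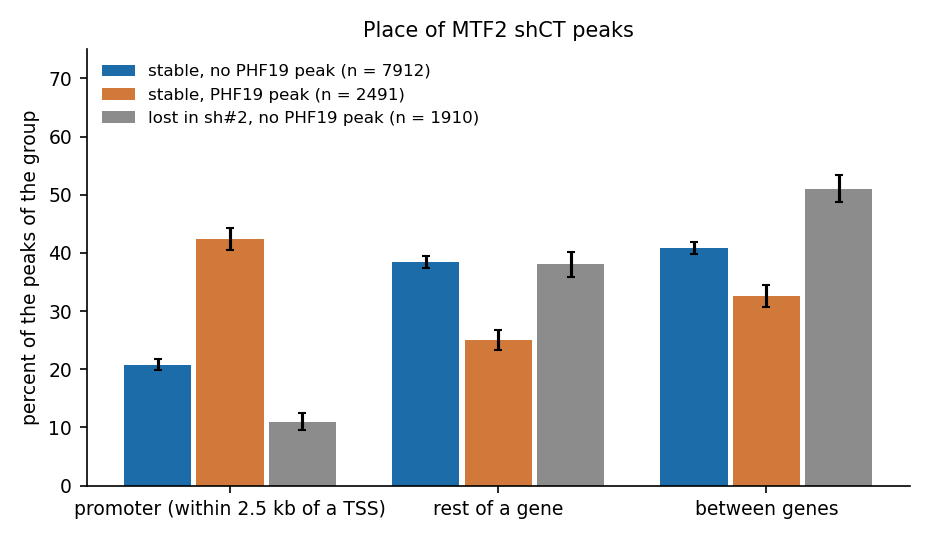
Percent of the peaks of each group (y axis) at a promoter, in a gene body outside promoters (rest of a gene) and between genes, with exact binomial 95% intervals as error bars. At promoters the PHF19-free stable peaks (20.8%) stand below the stable peaks with PHF19 (42.4%) and above the lost peaks without PHF19 (10.9%).

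The DNA under the PHF19-free stable peaks was about as rich in G and C as that under the stable peaks with PHF19 but held fewer CpG-dense centres. The median GC content was 53.0% in PHF19-free stable peaks, 53.4% in stable peaks with PHF19 and 47.2% in lost peaks without PHF19. The median ratio of observed to expected CpG was 0.338, 0.391 and 0.275 in the same order of groups. Over all MTF2 shCT peaks the medians were 52.2% and 0.336, close to those of the PHF19-free stable peaks. A peak was called island-like where its central 500 bases had a GC content of at least 50% and a ratio of at least 0.6. This was so for 1046 PHF19-free stable peaks (13.2%, interval 12.5 to 14.0), against 27.1% of stable peaks with PHF19 (25.4 to 28.9), 4.61% of lost peaks without PHF19 (3.71 to 5.65) and 14.6% of all MTF2 shCT peaks. Island-like centres were found mainly at promoters. Among PHF19-free stable peaks they took 37.1% of the promoter peaks, 5.27% of those in gene bodies and 8.54% of the intergenic ones. Among stable peaks with PHF19 at promoters the share was 50%. By score bin the share rose with the score, with 9.12%, 11.99%, 13.9% and 18.5% among PHF19-free stable peaks and 12.3%, 15.9%, 21.3% and 34.7% among stable peaks with PHF19.

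Short motifs were counted on both strands in the central 500 bases, as a description of the letters there. CGCG was found in 32.3% of PHF19-free stable peaks (interval 31.3 to 33.3), 44.8% of stable peaks with PHF19 and 16.6% of lost peaks without PHF19, with 32.2% of all MTF2 shCT peaks. GCGCGC, which contains CGCG, was found in 6.75%, 15.7% and 2.57% of these groups and in 7.88% of all. CCGCC was held by 55.6% of PHF19-free stable peaks, 60.8% of stable peaks with PHF19 and 37.1% of lost peaks, with 53.6% of all. GATAA, letters that GATA factors bind, stood in 35.2% of PHF19-free stable peaks and 34.3% of stable peaks with PHF19, with overlapping intervals, in 47.6% of lost peaks and in 37.1% of all. CACCC, bound by Krüppel-like factors, was in 80.8% of PHF19-free stable peaks, 80.5% of stable peaks with PHF19 and 71.6% of lost peaks, with 79.2% of all. TGACTCA, the AP-1 element, was in 6.95%, 6.22% and 7.96% of these groups and in 6.99% of all, and these intervals overlapped too.

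PHF19-free stable peaks, like MTF2 shCT peaks at large, were dense towards the ends of chromosomes, a measure that was chosen after the values were seen. The outer 5 Mb at both ends of each chromosome make up 7.58% of the 3036.3 Mb of the chromosomes. They held 2814 of the PHF19-free stable peaks (35.6%, interval 34.5 to 36.6), 27.5% of the stable peaks with PHF19 (25.8 to 29.3), 24.5% of the lost peaks without PHF19 (22.5 to 26.4) and 32.1% of all MTF2 shCT peaks. Among PHF19-free stable peaks the share was 24.0% at promoters, 37.5% in gene bodies and 39.6% between genes. It was 31.2%, 31.2%, 35.0% and 46.9% over the score bins, 18.9%, 17.6%, 24.7% and 32.6% for stable peaks with PHF19, and 20.3%, 23.5%, 34.9% and 54.4% for lost peaks without PHF19. In the upper 2 bins the lost peaks, 229 and 79 in number, thus had shares as high as or above those of the PHF19-free stable peaks. By chromosome, the density of PHF19-free stable peaks was highest on chromosomes 17 (6.87 per Mb), 20 (5.60), 21 (5.46) and 19 (5.31) and lowest on X (0.290) and 3 (0.879), with 2.61 per Mb over all. Gene density and G and C content also differ between these chromosomes, and their part in the densities was not tested. The share of a chromosome's MTF2 shCT peaks that were PHF19-free and stable ran between 53.0% on chromosome 7 and 77.5% on chromosome 22.

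**Figure D2:**
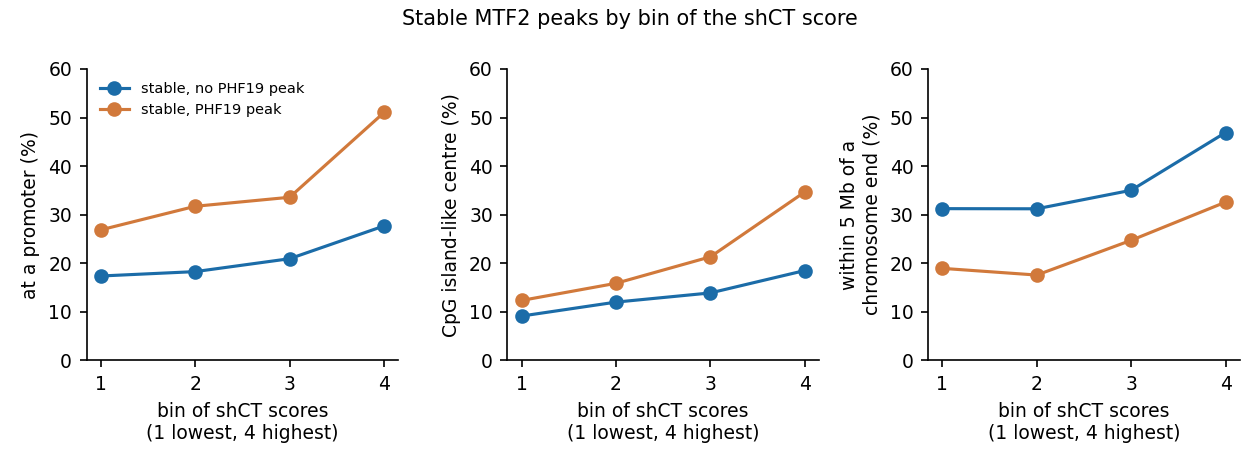
Stable MTF2 peaks by bin of the shCT caller score (x axis, low to high) against the percent at a promoter, with a CpG island-like centre and within 5 Mb of a chromosome end. In every bin the PHF19-free stable peaks lie below those with PHF19 for promoters and island-like centres, and above them for chromosome ends (46.9% against 32.6% in the highest bin).

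At most of these sites the MTF2 peak called in sh#2 cells was wider than that in shCT cells. The median width was 4171 bp in sh#2 and 1765 bp in shCT, and the median ratio of sh#2 to shCT width was 2.08 (quartiles 1.41 and 3.40). An sh#2 peak was counted once for each site it was matched to, so broad ones could count several times. Over the whole MTF2 lists the median widths were 2598 bp in sh#2 and 1780 bp in shCT. The sh#2 peak was at least 1.5 times as wide at 5596 of the 7912 sites (70.7%, interval 69.7 to 71.7), where 67.9% of all stable MTF2 peaks were, and at least 2 times as wide at 4141 sites (52.3%, with 48.9% of all stable peaks). At stable peaks with PHF19 the median ratio was 1.68 and 58.9% (56.9 to 60.8) were at least 1.5 times as wide. Peaks at most 1/1.5 as wide numbered 53 (0.670%), near the 0.702% of all stable peaks. The sh#2 score was above the shCT score at 87.7% of PHF19-free stable peaks and at 87.6% of all stable peaks, so this comparison of 2 separate peak callings did not set them apart. Both width and score depend on sequencing depth and on the efficiency of the ChIP, which are not known for either library, and the part of these was not tested. The rule required an sh#2 peak, so these values describe the peaks chosen.

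**Figure D3:**
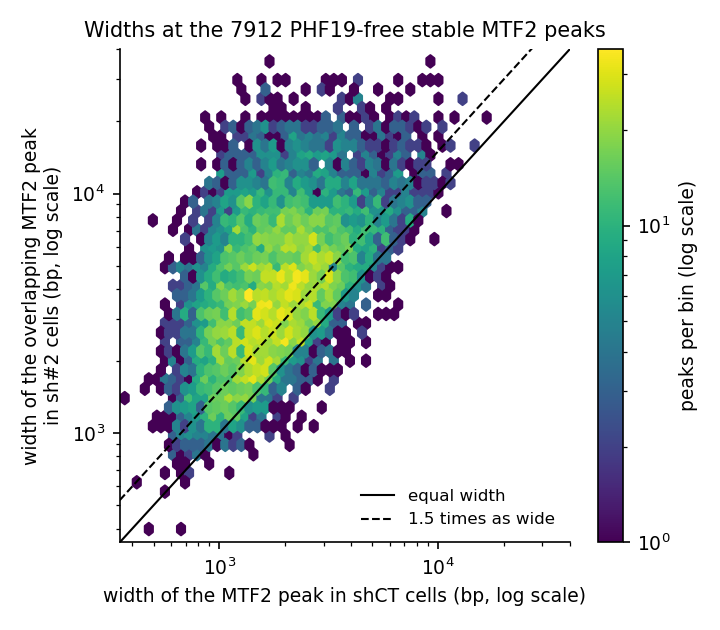
Width of the overlapping MTF2 peak in sh#2 cells (y axis, bp, log scale) against the width of the MTF2 peak in shCT cells (x axis, bp, log scale) at the 7912 PHF19-free stable peaks, with colour for the number of peaks per bin. Most bins lie above the line of equal width and 70.7% of the peaks lie on or above the dashed line of 1.5 times the width.

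The ratio was larger for weak peaks, with 80.8%, 74.6%, 67.5% and 58.9% at least 1.5 times as wide over the score bins of the PHF19-free stable peaks. The same order was seen in stable peaks with PHF19, at 75.3%, 73.1%, 67.4% and 49.3%. In score bins 2 and 3 the 2 kinds of stable peak differed by less than 2 percentage points. The bins and the ratio are not independent, as the shCT width, by which the ratio divides, rose with the shCT score. Over the bins the PHF19-free stable peaks had median shCT widths of 1203, 1471, 1991 and 3214 bp. Their median sh#2 widths were 3372, 3616, 4162 and 6109 bp, so weak peaks were the narrowest in sh#2 as well. The largest ratio was 25.5, at a peak between genes near SIK1, which encodes a salt-inducible kinase, with 30517 bp in sh#2 and 1198 bp in shCT. A peak near FAM20C, the gene of a secretory pathway kinase, was 20625 bp wide in sh#2 and 862 bp in shCT, and one at the promoter of LHX2, a LIM homeobox factor, was 27934 bp in sh#2 and 1243 bp in shCT. The sh#2 peaks of all 3 touched a PHF19 peak, and their shCT peaks lay 384 to 1972 bp from one. The smallest ratios belonged to peaks in CFAP97D2, with 1064 bp in sh#2 and 2650 bp in shCT, near LYZL1, a lysozyme-like gene, with 888 and 2118 bp, and near ZMIZ1, a transcriptional coactivator gene, with 1973 and 4512 bp. Of the 5 widest shCT peaks, 3 had sh#2 widths close to those in shCT: that in RIPK4, a kinase gene of epidermal differentiation, was 19995 bp in sh#2 and 16686 bp in shCT, and that in RBFOX3, a neuronal splicing factor gene, was 15408 bp in sh#2 and 14890 bp in shCT. At the third, PRDM16, which encodes a zinc finger factor of blood stem cells and brown fat, the widths were 16668 bp in sh#2 and 14626 bp in shCT, while the score was 3100 in sh#2 (rank 3) and 250 in shCT (rank 1621). PTPRN2, a receptor-type phosphatase gene, held the other 2 of the 5 widest, of 24199 and 24536 bp in sh#2, against 12901 and 12422 bp in shCT.

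Several shCT peaks often lay within 1 broad sh#2 peak. The 7912 sites touched 6747 sh#2 peaks, of which 5672 held 1 of them, 1075 held 2 or more and 11 held at least 5. In all, 2433 PHF19-free stable peaks (30.8%) shared their sh#2 peak with another one, so neighbouring sites are not independent. The most were 7 in a sh#2 peak of 19486 bp in SARDH, a sarcosine dehydrogenase gene (chr9:136540710-136560195), followed by 6 in one of 17364 bp in ANO1, a chloride channel gene. An sh#2 peak of 18171 bp at SIX3, a homeobox factor of the forebrain and eye (chr2:45156964-45175134), held 5. Of the shCT peaks, 5844 (73.9%) were covered over their whole length in sh#2, against 74.5% of stable peaks with PHF19.

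The distance to the nearest PHF19 peak had a median of 47931 bp. It was under 1 kb at 405 peaks (5.12%), 1 to 5 kb at 926 (11.7%), 5 to 50 kb at 2675 (33.8%), 50 to 500 kb at 2997 (37.9%) and larger at 909 (11.5%). The peaks farthest from PHF19 were the most CpG-dense, with a median observed to expected ratio of 0.319, 0.318, 0.321, 0.346 and 0.427 over these 5 classes, near to far. Island-like centres took 11.1%, 8.64%, 9.46%, 13.5% and 28.9%, and promoters 26.9%, 17.0%, 17.6%, 20.7% and 31.7%. The median width in sh#2 was 4795, 4923, 4462, 4090 and 2858 bp and the ratio of sh#2 to shCT width 2.76, 2.55, 2.08, 2.02 and 1.87, so the peaks near PHF19 were those that were widest relative to shCT. At 626 sites (7.91%) the MTF2 peak of sh#2 cells itself touched a PHF19 peak of shCT cells. The members closest to the limit of the rule were at LITAF, which encodes a protein of endosomes and lysosomes, 2 bp from a PHF19 peak, RHEX, a regulator of erythroid expansion, at 5 bp, and CCDC110, at 10 bp. Only 0.874% of the RHEX peak was covered in sh#2, so it barely met the rule for a stable peak. The sh#2 peaks at LITAF and RHEX touched a PHF19 peak, and that at CCDC110 did not. Just outside the limit were a peak in ANKS4B and CRYM and one in SPATS1, which shared 2 and 9 bp with a PHF19 peak.

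Genes with a PHF19-free stable peak at the promoter were mostly little expressed. Such a peak was found at 1277 of 19748 placed protein-coding genes (6.47%). A PHF19 peak was called in a promoter window of 232 of the 1277 genes, and of 1599 of all 19748 (8.10%). Every promoter of a gene was counted, so this window need not be the one with the MTF2 peak. Of the 1277 genes, 1029 had no MTF2 shCT peak of another group at a promoter. The mean normalized count, which pools depleted and control libraries and so says nothing of a change between them, was at least 10 for 338 of the 992 of these genes in the table (34.1%, interval 31.1 to 37.1), where 66.5% of all protein-coding genes in the table were. Of the genes with a stable peak with PHF19 and none without, 384 of 707 reached 10 (54.3%, 50.6 to 58.0), of those with lost peaks alone 79 of 151 (52.3%, 44.04 to 60.5), and of those with no MTF2 shCT peak 69.5%. Divided by the exon length, the median mean was 0.506 per kb at PHF19-free stable peaks, 2.98 per kb at stable peaks with PHF19, 2.40 per kb at lost peaks and 84.7 per kb at genes without an MTF2 shCT peak. The share that reached 10 was 34.5%, 37.5%, 35.2% and 30.2% over the score bins of the PHF19-free stable peaks, and 67.9%, 63.8%, 60.9% and 50.8% for stable peaks with PHF19. With an island-like centre it was 41.9% for PHF19-free stable peaks and 61.3% for stable peaks with PHF19, and without one 25.8% and 43.5%. The lower share thus held in each score bin and on both sides of the CpG threshold.

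**Figure D4:**
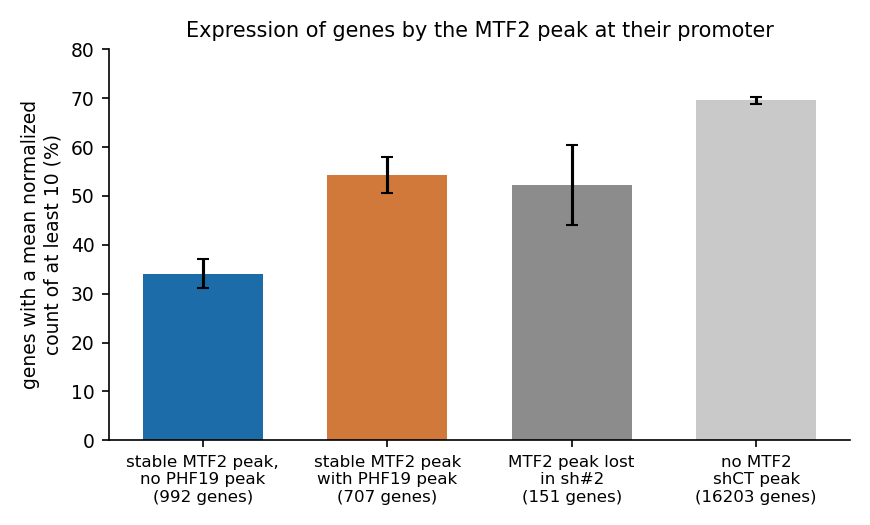
Percent of protein-coding genes whose mean normalized count over the 6 RNA-seq libraries reached 10 (y axis), by the kind of MTF2 shCT peak at their promoter, with exact binomial 95% intervals as error bars. Genes with a PHF19-free stable peak alone stand lowest, at 34.1%, and genes with no MTF2 shCT peak highest, at 69.5%.

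Some of these genes were nevertheless among the abundant ones of the table. The 5 genes with a PHF19-free stable peak at a promoter and the highest mean normalized counts were GNAS (19599), which encodes the stimulatory G protein alpha subunit, PDIA6 (13280), a protein disulfide isomerase, NMT1 (7621), an N-myristoyltransferase, GNL2 (7337), a nucleolar GTPase, and ANK1 (7220), the ankyrin of the red cell membrane. The scores in shCT were 69.5 at GNAS, 166 at PDIA6, 88.9 at NMT1, 64.6 at GNL2 and 408 at ANK1. The peak at ANK1 was thus the highest-scoring of the 5. PDIA6 and NMT1 also had a PHF19 peak in a promoter window, and the nearest PHF19 peaks lay 497 and 2743 bp from their MTF2 peaks. GNAS and ANK1 have several promoters, and the mean covers all transcripts of a gene.

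Among the gene lists, developmental factors and signaling genes had more PHF19-free stable peaks at their promoters than the 6.47% of all placed genes. PHF19 peaks were also more frequent there: 145 of the 939 listed genes (15.4%) had one at a promoter, against 8.10% of all placed genes. A PHF19-free stable peak was found at 154 of the 939 (16.4%). Homeobox factors outside the HOX clusters, the longest of the lists, had 39 of 132 (29.5%), and 28 of 132 had a PHF19 peak. After EN2, the highest-scoring were PAX2, a factor of kidney and eye, at a score of 613, and POU2F2, a factor of B cells, at 583. EN2 and PAX2 had mean normalized counts of 0.155 and 0, and 5 of the 39 genes had one of at least 10. PAX2 and POU2F2 also had a PHF19 peak in a promoter window. At POU2F2 this was another promoter, as no PHF19 peak lay nearer to the MTF2 peak than 40378 bp. The PAX2 peak was 26127 bp wide in sh#2 and 4079 bp in shCT. In the HOX clusters, which set position along the body axis, 8 of 39 genes had a PHF19-free stable peak, led by HOXC13, HOXA3 and HOXD1, while 14 of 39 had a PHF19 peak at the promoter. The HOX count was 4 with no PHF19 peak within 5 kb and with promoters of 1 kb. It was also 4 with only the shCT peaks at or above their median score. Without peaks whose MTF2 sh#2 peak touched a PHF19 shCT peak it was 5. Of 17 T-box factors, 5 had one, TBX5, TBX3 and TBX15 leading, against 1 with a PHF19 peak, and 3 had one with only the sh#2 peaks at or above their median score. Forkhead factors (8 of 53, against 12 with a PHF19 peak) were led by FOXE3, a lens factor, FOXN1, the thymic epithelial factor, and FOXL3. The 2 SOX genes of 19 were SOX13 and SOX14, with weak shCT peaks of scores 75.8 and 55.2, while 3 of 19 had a PHF19 peak. The SOX count was 1 with promoters of 1 kb and 0 with only the shCT peaks at or above their median score. Of 6 GATA genes, GATA4, a factor of heart and gut, and GATA3, a T cell factor, had such a peak. Both also had a PHF19 peak at a promoter. The GATA count was 1 with no PHF19 peak within 5 kb and with promoters of 1 kb. It was also 1 without peaks whose MTF2 sh#2 peak touched a PHF19 shCT peak. At GATA3 the peak was 9131 bp wide in sh#2 and 2228 bp in shCT.

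Where 8.10% of all placed genes had a PHF19 peak at a promoter, 12 of 49 Wnt genes (24.5%) did. A PHF19-free stable peak was found at 14 of the 49 (28.6%). They were led by FZD8, a Wnt receptor (4116 bp in sh#2 and 3131 bp in shCT), WNT4, a ligand with a PHF19 peak in its promoter window too (16603 bp in sh#2 and 3547 bp in shCT), and SFRP2, a secreted inhibitor (4868 bp in sh#2 and 2953 bp in shCT). The mean normalized counts of FZD8, WNT4 and SFRP2 were 9.44, 3.22 and 0.290, and 4 of the 14 genes reached 10. With only the shCT peaks at or above their median score the Wnt count was 8. BMP, activin and TGF-beta genes had 6 of 37, against 7 with a PHF19 peak. INHBB, an activin subunit, NOG, the BMP antagonist noggin, and BMP7 led, and INHBB and NOG were listed at 0. Among Notch genes NOTCH3, NOTCH1 and HES3 had one (3 of 19), whereas 10 of 19 had a PHF19 peak. NOTCH1, with a mean of 514, had a weak peak (score 53.1 in shCT). With only the shCT peaks at or above their median score the Notch count was 0, and it was 1 with no PHF19 peak within 5 kb. The ephrin genes EPHB2, EFNB3 and EPHA10 (3 of 22, against 5 with a PHF19 peak) had mean normalized counts of 1.47, 0.985 and 19.7.

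Genes of neurons and of the matrix were also among them. Potassium channel genes had 19 of 94 (20.2%), and 14 of 94 had a PHF19 peak. KCNF1 and KCNA2 were among the highest-scoring, at 547 and 506, and both were listed at a mean normalized count of 0. Neurotransmitter receptors had 17 of 99 (17.2%), and 13 of 99 had a PHF19 peak. GRIN1, a glutamate receptor subunit, HTR6, a serotonin receptor, and GRIK4, a kainate receptor subunit, led the 17. At GRIN1 the width was 8490 bp in sh#2 and 8129 bp in shCT. Collagens had 14 of 44 (31.8%), against 6 of 44 with a PHF19 peak. COL6A2 (score 559), COL20A1 (282) and COL6A1 (186) led, and COL6A2 and COL6A1 lie close together near the end of chromosome 21. Of 65 protocadherins only PCDH1 had one. A PHF19 peak in a promoter window was also found at HOXC13, FOXL3, HES3, EPHA10, PCDH1, BCL11A and MECOM. At EPHA10 this was another promoter, as no PHF19 peak lay nearer to the MTF2 peak than 12034 bp.

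Genes of the hematopoietic lists were around or below the background, with the exception of the stem and progenitor list. Of 39 erythroid genes, ANK1 and BCL11A, a repressor of fetal globin genes, had a PHF19-free stable peak. VWF, the von Willebrand factor gene, was the 1 of 17 megakaryocyte genes, and CEBPA, the factor of granulocytes, the 1 of 16 myeloid genes. Of 15 stem and progenitor genes, 5 had one (33.3%): KIT, the stem cell factor receptor, with a mean of 151, PROM1, which encodes CD133, listed at 0, MECOM, with 569, and ERG and LMO1. With promoters of 1 kb the count was 2. The KIT peak was 2985 bp wide in sh#2 and 2584 bp in shCT, and that of MECOM 1330 bp in sh#2 and 1590 bp in shCT. PHC2, a PRC1 subunit, was the 1 of 32 Polycomb genes (3052 bp in sh#2 and 2696 bp in shCT), with a mean of 1615. A PHF19 peak was found at 5 of these 32. The cell cycle inhibitors GADD45G and CDKN1C were 2 of 22, against 3 with a PHF19 peak. Their scores were 78.9 and 66.9, and CDKN1C had a mean of 1025. MX2 was the 1 of 31 interferon-stimulated genes, and no cytosolic ribosomal protein gene of 77 had a PHF19-free stable peak. The small counts of the megakaryocyte, myeloid, interferon-stimulated and cell cycle inhibitor lists were each 0 with only the shCT peaks at or above their median score.

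**Figure D5:**
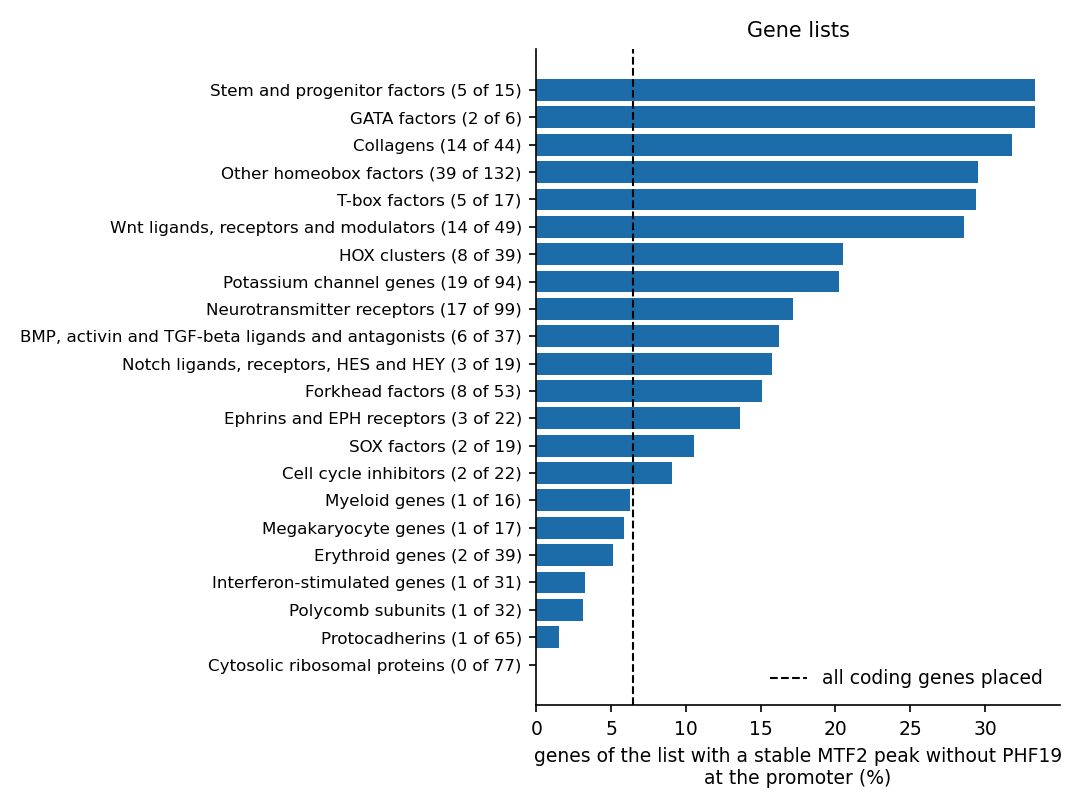
Percent of the genes of each of 22 lists with a PHF19-free stable MTF2 peak at the promoter (x axis), with the counts beside the names. The dashed line marks 6.47%, the share of all placed protein-coding genes, and developmental, Wnt, collagen and channel lists lie to its right.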

How the data were processed

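ChIP-seq and RNA-seq libraries were grouped by their labels. The authors mapped ChIP-seq reads with Bowtie to hg19 and dm3 (unique matches), called peaks with MACS against a control and deposited positions with a caller score. The track line of the PHF19 list also names a second sample, so its control is uncertain, and it holds more peaks than the study counted after its minimum of tags per PHF19 peak, so it is not that filtered set. RNA-seq reads were aligned with TopHat, and the authors deposited a DESeq2 table of 27348 genes. Of it only the mean of the normalized counts of the 6 libraries, a score that is not per length, was used: its fold changes and p-values are the authors' own comparison and were not used. Tool versions were not given in the sources used here. Tool names also come from the submitters' processing notes.

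Overlaps (at least 1 bp), distances and base composition were computed with pandas 2.3.3, numpy 2.4.6 and scipy 1.17.1 (Python 3.11.15) and drawn with matplotlib 3.10.9. The overlap step was tested on simulated data. Coordinates are 1-based on GRCh37, and 0 peaks ran past a chromosome end. Protein-coding genes came from GENCODE 44, and 23257 symbols of the table matched it. Where several sh#2 peaks overlapped a peak, the one with the largest overlap gave its width and score. Intervals are exact binomial (Clopper-Pearson) at 95%. Since per-library values were not used and each ChIP condition had 1 library, no test was made.

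Named regions were, by shCT score, the 10 highest at promoters and 5 between genes, the 5 widest, the 3 largest and 3 smallest width ratios, the 3 nearest to PHF19 and 3 just excluded, with up to 3 genes per list and the 5 most abundant promoter genes. ERG, LMO1 and domains with several peaks were added after their values were seen. Some items that this rule takes are not reported here. Members and the 22 lists were chosen with earlier results of these data known. The IgG library and the PHF19 libraries of depleted cells were not analysed here.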

Additional observations from a re-analysis of the deposited data

How the results depend on the processing

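Of 304 values computed under other settings, 243 stayed within the interval of the reported value or, for counts, within 1.5 times of it. No paired analysis was possible because each ChIP condition had 1 library and the RNA table holds no values per library. PHF19-free stable peaks were 69.5% of the MTF2 shCT peaks when only PHF19 peaks at or above their median score counted, 62.3% with at least 50% of the shCT peak covered in sh#2, 60.04% and 52.6% with no PHF19 peak within 1 or 5 kb, 49.3% with only the sh#2 peaks at or above theirs and 58.3% without those whose sh#2 peak touched a PHF19 peak. The promoter share was 21.9%, 22.2% and 23.7% with only the PHF19, sh#2 or shCT peaks at or above their median score (the last leaves 3963 peaks, of which 2536 were at least 1.5 times as wide in sh#2). It was 16.7% with promoters of 1 kb and 37.9% with all annotated genes, non-coding ones included. The median width in sh#2 was 4863 and 4853 bp with only the higher-scoring sh#2 or shCT peaks and 4015 bp with no PHF19 peak within 5 kb. It was 3912 bp without peaks whose MTF2 sh#2 peak touched a PHF19 shCT peak. The median width in shCT was 1916, 2364 and 1799 bp with only the higher-scoring sh#2, shCT or PHF19 peaks. The median GC content was 53.9%, 53.8% and 54.0% and the CpG ratio 0.348, 0.346 and 0.352 with the central 500 bases and with the higher-scoring sh#2 or shCT peaks, and the CpG ratio was 0.343 with no PHF19 peak within 5 kb. In 1000 bases, 47.0% held CGCG, 11.1% GCGCGC, 75.8% CCGCC, 56.9% GATAA, 95.5% CACCC and 13.1% TGACTCA. Of genes with any PHF19-free stable peak at the promoter, 35.1% had a mean of at least 10 and 13.5% one of at least 100. The outer 2 Mb of the chromosomes held 15.4% of the peaks. That setting and the one leaving out MTF2 sh#2 peaks that touch a PHF19 shCT peak were chosen after seeing the data. The cause of these shifts was not tested beyond the settings themselves. Of 198 values for gene lists, 172 stayed within 1.5 times the reported count and 26 did not. Unknown depth limits every statement on widths, scores and absent peaks.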
